A study of Arabidopsis thaliana with 16 samples.

Results

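The plastid genome features of Arabidopsis thaliana are the genes carried on the chloroplast chromosome, ChrC. They were taken as every row of the deposited small RNA table that lies on that chromosome, 134 rows of the 65386 in the table. The chromosome carries a large inverted repeat, and 18 genes of it are listed at both copies with the same reads. Each such pair was counted once, which left 116 measurements. They comprise 30 transfer RNA (tRNA) genes, 4 ribosomal RNA (rRNA) genes and 82 other features, almost all of which encode proteins. The rule uses the chromosome alone and no measured value.

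The study asked which small RNAs are bound by the Argonaute proteins AGO5 and AGO9, which carry small RNAs that guide silencing. All plants were in the Col-0 background and were sampled at 7 days, as shoot apices, or at 35 days, as inflorescence and floral meristems together with young buds, and tissue therefore changed along with age. AGO5 was pulled down from pAGO5::GFP-AGO5 plants. AGO9 was pulled down from pAGO5::GFP-AGO9 plants, in which the AGO5 promoter drives AGO9, so its cells of expression are those of that promoter. The background immunoprecipitate (IP) came from p35S::GFP plants, which make green fluorescent protein alone under a promoter active in most tissues. Input replicate 1 came from the AGO5 line and input replicate 2 from the AGO9 line. Both inputs of an age served for every IP of that age, and neither came from p35S::GFP plants. Plant line and IP therefore cannot be told apart in the comparison of GFP alone with input. Each of the 8 groups had 2 libraries, 16 in all, and nothing states that replicates came from separate plantings, so p-values measure the spread between these samples. Small RNA reads do not measure marker messenger RNAs, so the tissue labels were not checked here.

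Chloroplasts descend from a cyanobacterium and keep a small genome of their own. It encodes the rRNAs, tRNAs and part of the ribosomal proteins of a bacterial type of ribosome, 4 subunits of a bacterial type of RNA polymerase, and core subunits of the photosystems, the cytochrome b6f complex, the ATP synthase, the NDH complex and the large subunit of rubisco. Short plastid reads are usually fragments of longer transcripts, or footprints left where a protein or a ribosome covered the RNA. Copies of plastid DNA are also found in the nuclear chromosomes of many plants, where a read from either place carries the same letters.

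The sequences of the features on which most of the results turn are given here from the TAIR10.1 RefSeq assembly, whose plastid coordinates equal those of the table for 124 of the 134 rows. They are written 5′ to 3′ on the strand that the table gives, and capitals mark bases inside a 24-base window that also occurs, letter for letter, in a nuclear chromosome. The 4.5S rRNA (ChrC:107599-107701, plus strand, repeated in the other arm of the inverted repeat) and the ribosomal protein gene rpl23 (ChrC:85862-86143, minus strand, also repeated) hold no such window. The serine tRNA gene trnS (ATCG00090, ChrC:7785-7872) is printed on the plus strand, which here is the reverse complement of the tRNA. It holds some such windows, mainly at the start as printed, which is the 3′ end of the tRNA. The aspartate tRNA gene trnD (ChrC:29801-29874, minus strand) is copied over most of its length, and the tyrosine tRNA gene trnY (ChrC:30323-30406, minus strand) over all of it.
rrn4.5S: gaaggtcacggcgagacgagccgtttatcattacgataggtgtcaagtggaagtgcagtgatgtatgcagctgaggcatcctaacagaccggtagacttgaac
rpl23: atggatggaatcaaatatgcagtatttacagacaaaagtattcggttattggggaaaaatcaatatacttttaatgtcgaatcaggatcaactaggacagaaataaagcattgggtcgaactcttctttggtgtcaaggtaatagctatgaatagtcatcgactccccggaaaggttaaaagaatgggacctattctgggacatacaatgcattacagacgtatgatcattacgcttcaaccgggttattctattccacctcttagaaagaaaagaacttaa
trnS (ATCG00090): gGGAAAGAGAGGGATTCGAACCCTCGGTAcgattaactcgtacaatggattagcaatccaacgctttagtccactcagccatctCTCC
trnD: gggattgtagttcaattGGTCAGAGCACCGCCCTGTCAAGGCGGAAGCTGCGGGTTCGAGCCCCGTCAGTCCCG
trnY: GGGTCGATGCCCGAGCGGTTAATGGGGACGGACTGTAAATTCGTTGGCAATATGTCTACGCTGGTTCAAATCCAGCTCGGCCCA

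The unit throughout is RPM, reads for each 1000000 reads assigned to any feature of the table, summed over reads of 21 to 24 nt. Libraries held between 3578524 and 99594348 read assignments, and the smallest value that 3 reads could give ranged from 0.0301 to 0.838 RPM. All but 1 feature had reads in every input library. The day 35 GFP-only libraries were the shallowest, and 63 and 69 of the 116 plastid features had no read in them. The feature without reads anywhere was matK, a gene for an intron maturase that lies wholly inside the lysine tRNA gene trnK. Whether the counting used strand is not given in the sources used here, so overlapping genes and genes on opposite strands, such as psbN within the psbB operon, cannot be told apart.

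Plastid reads made up a larger share of the input at day 7 than at day 35, a smaller share of the day 7 AGO5 and AGO9 IPs than of their input, and the largest shares in the GFP-only IPs. At day 7 the share was 3.04% and 2.79% in the inputs, 1.79% and 0.234% in the AGO5 IPs, 0.773% and 0.254% in the AGO9 IPs, and 15.1% and 3.61% in the GFP-only IPs. The day 35 shares were 0.374% and 0.133% in the inputs, 0.394% and 0.933% in the AGO5 IPs, 0.0146% and 0.328% in the AGO9 IPs, and 1.09% and 1.93% in the GFP-only IPs. Both day 7 AGO5 and AGO9 libraries lay below both inputs, and both GFP-only libraries lay above both inputs at either age. The 2 libraries of one group often differed several fold, and the AGO9 IPs at day 35 differed the most.

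Set against the day 7 inputs, AGO5 differed by -1.91 percentage points, AGO9 by -2.40 and GFP alone by 6.45. The day 35 differences were 0.409 points with AGO5, 1.26 with GFP alone and -0.0827 with AGO9, whose libraries overlapped the inputs. A two-sided exact permutation test of 2 libraries against 2 cannot go below p = 0.333, which was the value wherever the groups did not overlap, and it gave p = 0.667 for AGO9 at day 35. Without the tRNA and rRNA genes the share was 0.633% and 0.624% in the day 7 inputs and 0.755% and 0.440% in the GFP-only IPs, which overlapped. At day 35 it was 0.119% and 0.0521% in the inputs, 0.0587% and 0.0297% in the AGO5 IPs and 0.0360% and 0.0490% in the GFP-only IPs, the last below both inputs. The difference was then -0.0415 points for AGO5 at day 35, -0.0313 for GFP alone at day 7 and -0.0431 for GFP alone at day 35, so the higher shares in those groups lay in these 34 genes. Without replicate 1 of the GFP-only IP the day 7 difference was 0.692 points in place of 6.45, and without replicate 2 it was 12.2. For AGO5 at day 35 it was 0.679 points without replicate 1 of the IP and 0.140 without replicate 2. Without replicate 2 of the day 7 AGO5 IP the difference was -1.13 points. For AGO9 at day 35 it was 0.0739 without replicate 1 of that IP and -0.239 without replicate 2, and leaving out either input also moved it, between 0.0378 and -0.203.

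**Figure D1:**
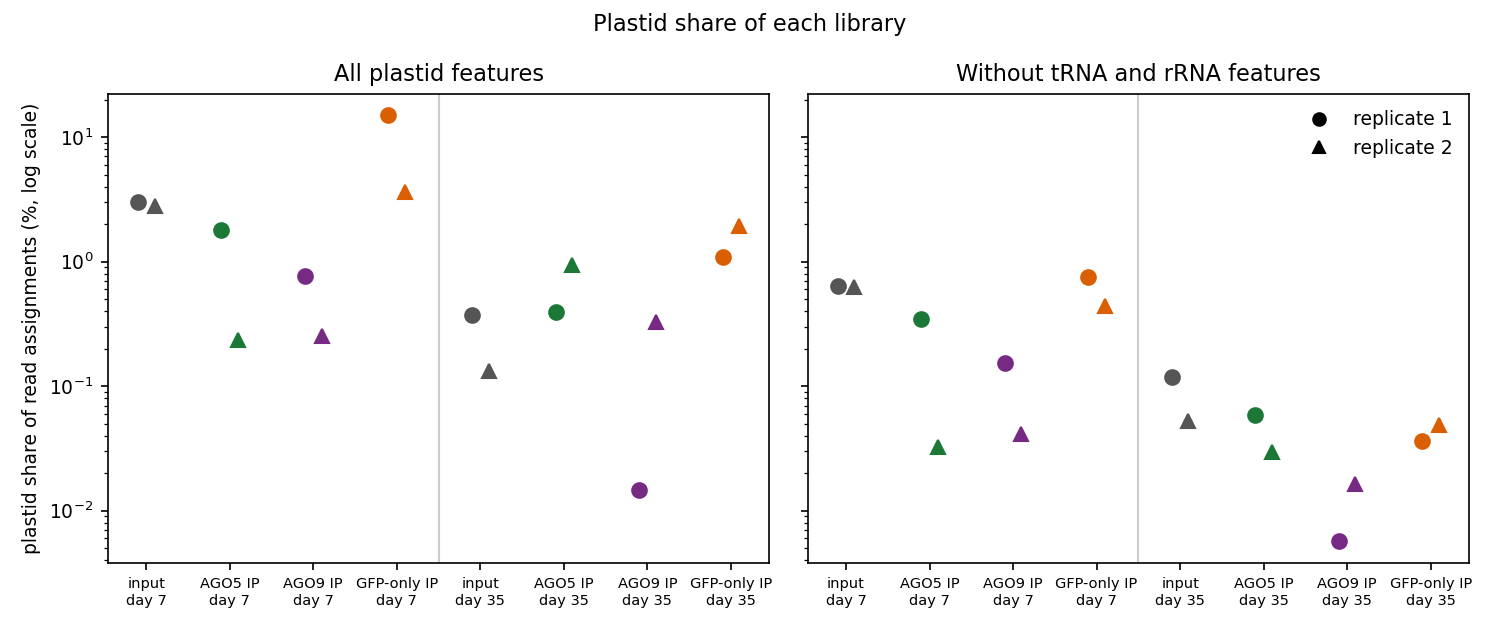
Plastid share of the read assignments of each library, in percent on a log scale, for all plastid features (left) and without the tRNA and rRNA genes (right), by group and age. Circles are replicate 1 and triangles replicate 2. The GFP-only libraries stand above the inputs on the left and, at day 35, below them on the right.

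The sizes of all reads in a library moved with these groups. Reads of 24 nt made up 76.4% and 89.8% of the day 7 AGO9 IPs, against 35.7% and 37.1% of the inputs, so the share was also taken within each size. Among 21 nt reads the plastid share at day 7 was 1.42% and 1.68% in the AGO9 IPs and 3.12% and 2.93% in the inputs. Among 22 nt reads it was 3.91% and 2.41% against 4.86% and 4.67%. Among 24 nt reads it was 0.252% and 0.0780% against 1.71% and 1.48%. These 3 sizes left both AGO9 libraries below both inputs, whereas the 23 nt shares of 3.76% and 1.51% overlapped the input shares of 3.74% and 3.46%. 

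Feature by feature, the plastid genome was lower in both Argonaute IPs than in input at day 7. Of the 116 measurements, 110 had a mean of at least 1 RPM and were tested with limma on log2(RPM + 1), with p-values adjusted over all 17020 features tested. The 6 left out were matK, psbM, psaI, rps12 (ATCG00065), rps15 and the isoleucine tRNA gene ATCG00850. A feature was called at an adjusted p under 0.05. In the AGO5 IP at day 7, 52 of the 110 were lower and 0 higher, where 10.4% and 7.73% of all features tested were called lower and higher. Their median log2 difference was -2.45, against -0.30 over all features tested. In the AGO9 IP at day 7, 61 were lower and 0 higher, against 9.48% and 17.6% of all features, and the median was -2.56 against 0.65. All 110 had a negative estimate there. Some features with few reads passed the filter of 1 RPM mainly through the day 7 inputs, which favoured a lower IP value for them.

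The day 7 counts depended on which libraries were kept. Without replicate 1 of the IP, 68 plastid features were lower for AGO5 and 56 for AGO9. With replicate 2 of the AGO5 IP or either input left out, 0 plastid features were called by limma in the AGO5 comparison, and edgeR's quasi-likelihood test on the recovered reads called 1, where the full limma fit had 76 at an unadjusted p under 0.05. For AGO9, 9 were lower without replicate 2 of the IP, 3 without input replicate 1 and 18 without input replicate 2, and edgeR called 7. In such a fit the lone library is assumed to vary like the other groups. Within one read size the plastid calls also went down at day 7, in fits added after seeing the data over features with at least 1 RPM of that size. For AGO5, 18 of 93 plastid features were lower among 21 nt reads, 40 of 88 among 22 nt, 40 of 83 among 23 nt and 26 of 84 among 24 nt reads. The shares of all features called lower in these fits were 2.73%, 3.3%, 18.2% and 2.97%, and those called higher 0%, 17.4%, 0.13% and 4.44%. For AGO9, 18, 20, 45 and 47 were lower, against 3.66%, 3.4%, 23.6% and 3.13% of all features, while 0%, 0.0137%, 0.0118% and 43.3% of all features were higher. No plastid feature was higher in any of these 8 limma fits. The mitochondrial genes, which also lie outside the nucleus, were called higher more often than lower at day 7, with 14 of 87 tested higher and 3 lower for AGO5, and 12 higher and 6 lower for AGO9. Their median log2 differences were 0.81 and 1.07.

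At day 35 few plastid features were called between the Argonaute IPs and input. In the AGO5 IP 4 of 110 were lower and 0 higher, against 24.2% lower and 3.84% higher of all features tested. The 4 were rpl23, 4.5S rRNA, trnH and the arginine tRNA gene trnR (ATCG00110), the last named after its value was seen. In the AGO9 IP 8 were lower and 0 higher, against 6.26% and 3.59%. Of the 110 AGO9 estimates, 108 were below 0 and 2 above. An unadjusted limma p under 0.05 was reached by 32 of the 110, and the share of all features that reached it was not counted. For AGO5, 61 estimates were below 0 and 49 above. The medians were -0.23 for AGO5, against -0.65 over all features, and -1.27 for AGO9, against -0.30. With the day 35 GFP-only libraries left out, AGO5 had 0 plastid features higher and 9 lower, and with each library also centred on its median 11 higher and 4 lower. Quantile normalisation of all libraries gave 4 higher and 3 lower, so the direction for AGO5 at day 35 depended on the scaling. Without input replicate 1, 2 plastid features were lower in either IP, and without AGO9 replicate 1, 4 were lower in the AGO9 IP. Within one read size, 0, 1, 3 and 7 plastid features were lower in AGO5 among 21, 22, 23 and 24 nt reads, where 0.0894%, 0.874%, 32.4% and 35.2% of all features were lower and at most 7.17% higher. The 0 stood beside 9 features at an unadjusted limma p under 0.05. In AGO9 5, 6, 5 and 5 were lower, against 9.98%, 8.79%, 19.3% and 1.85% lower and at most 4.91% higher of all features. The change in the difference from input between the ages itself gave 0 of 110 calls for either protein, with 46 features for AGO5 and 16 for AGO9 at an unadjusted p under 0.05. In all features 0.382% were called higher and 0.106% lower in that comparison for AGO5, and 1.2% and 0.711% for AGO9.

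**Figure D2:**
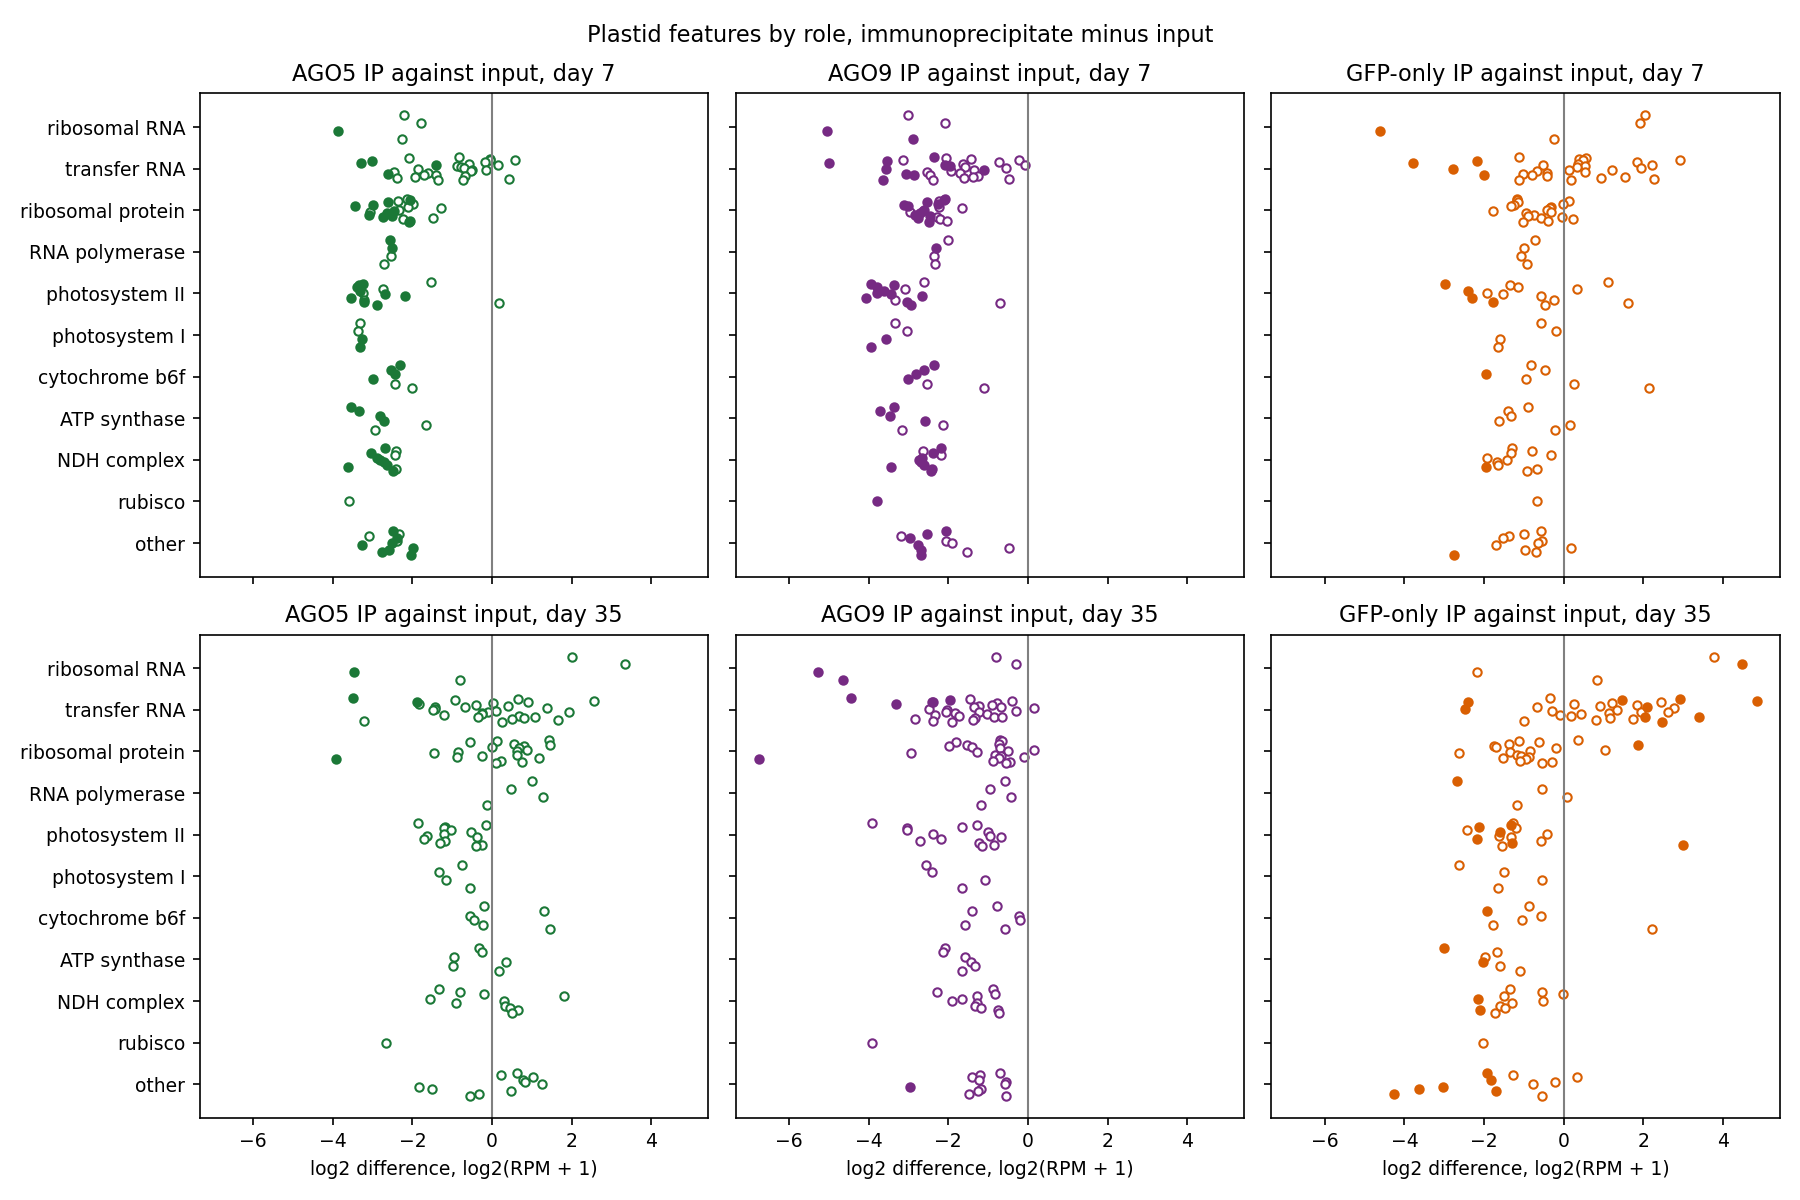
Difference between each IP and the inputs of its age for the 110 tested plastid features, for the 3 IPs (columns) and both ages (rows). The x axis is the log2 difference of RPM + 1 and the y axis the role. Filled points had a limma adjusted p under 0.05. At day 7 nearly all points of the AGO5 and AGO9 panels lie left of 0, while tRNA and rRNA points of the GFP-only panels spread to the right.

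The 4 rRNAs held between 46.6% and 92.5% of the plastid reads in a library. The 23S rRNA (rrn23S, ATCG00950) forms the core of the large ribosomal subunit together with the 4.5S (rrn4.5S, ATCG00960) and 5S (ATCG00970) rRNAs, and the 16S rRNA (rrn16S, ATCG00920) forms the core of the small subunit. Per length, the 4.5S rRNA was the most abundant plastid feature of the day 7 input, at 56419 RPM per kilobase, followed by 5S at 7010, 16S at 4357 and 23S at 2873.

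The 4.5S rRNA was abundant in every input and low in every IP. At day 7 it stood at 5890 and 5733 RPM in the inputs, 393 and 393 in the AGO5 IPs, 123 and 249 in the AGO9 IPs, and 203 and 276 in the GFP-only IPs. The day 35 values were 756 and 240 RPM in the inputs, 32.7 and 43.8 in the AGO5 IPs, 1.20 and 54.7 in the AGO9 IPs, and 104 and 83.6 in the GFP-only IPs. No IP library of either age reached the lower input of its age, and the GFP-only IP was low like the others. The log2 difference from input at day 7 was -3.88 ± 1.06 (SE) for AGO5, -5.05 ± 1.06 for AGO9 and -4.61 ± 1.06 for GFP alone, with limma adjusted p of 0.0277, 0.00705 and 0.0115. The day 35 AGO5 and AGO9 differences were -3.46 and -5.27, with limma adjusted p of 0.0300 and 0.00939, and GFP alone differed by -2.18 with an adjusted p of 0.109.

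Leaving out single libraries ended some of these 4.5S calls while keeping their direction. At day 7 the AGO5 call was lost without any one of its 4 libraries, with adjusted p between 0.0769 and 0.191. The AGO9 call was lost without input replicate 1 (adjusted p = 0.0658), and the GFP-only call without either input or without GFP-only replicate 1, with adjusted p between 0.0663 and 0.0863. At day 35 the AGO5 call was lost without either AGO5 library or without input replicate 1, with adjusted p between 0.0941 and 0.220, and the AGO9 call without input replicate 1 (adjusted p = 0.119). Over all alternatives the adjusted p at day 7 ranged from 0.00994 to 0.191 for AGO5, from 0.00159 to 0.0658 for AGO9 and from 0.00329 to 0.247 for GFP alone. At day 35 the ranges were 0.00815 to 0.397 for AGO5 and 6.82e-05 to 0.119 for AGO9.

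The long rRNAs behaved unlike 4.5S in the GFP-only IP. The 23S rRNA stood at 8740 and 7407 RPM in the day 7 inputs, 7932 and 687 in the AGO5 IPs, 3312 and 1083 in the AGO9 IPs, and 52612 and 17273 in the GFP-only IPs. At day 35 it stood at 744 and 187 RPM in the inputs, 2241 and 6404 in the AGO5 IPs, 55.0 and 1676 in the AGO9 IPs, and 5578 and 12429 in the GFP-only IPs. The GFP-only libraries lay above both inputs at either age, and both AGO5 libraries did so at day 35. The difference between GFP alone and input at day 35 was 4.47 ± 1.45 on the log2 scale (limma adjusted p = 0.0252), and it did not pass without input replicate 2 (0.155) or GFP-only replicate 2 (0.0700) or with quantile normalisation (0.0966), over a range of 0.0206 to 0.155.

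The 16S rRNA had the single highest plastid value, 86822 RPM in GFP-only replicate 1 at day 7. Replicate 2 stood at 8289, the inputs at 6923 and 6071, the AGO5 IPs at 3271 and 597 and the AGO9 IPs at 1374 and 473 RPM. Its difference between AGO9 and GFP alone at day 7 was -5.05 ± 1.57 (limma adjusted p = 0.0155), and that of 23S was -3.99 ± 1.45 (0.0303). Both lost the call without AGO9 replicate 2 (0.0953 and 0.157) and without GFP-only replicate 1 (0.151 and 0.170), and over all alternatives the adjusted p reached 0.151 for 16S and 0.331 for 23S.

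The ratio of 23S to 4.5S reads therefore separated inputs from IPs, without regard to the rest of a library. Of the 24-base windows of 23S, 17.2% also occur in the mitochondrial genome and 5.45% in a nuclear chromosome, and none of 4.5S do. Some reads counted for 23S may thus not be plastid. The ratio was 1.48 and 1.29 in the day 7 inputs and 0.985 and 0.783 in the day 35 inputs. In the IPs at day 7 it was 20.2 and 1.75 for AGO5, 27.0 and 4.36 for AGO9 and, highest of all, 259 and 62.6 for GFP alone. The day 35 IPs ran from 30.6 to 149. All 12 IP libraries lay above all 4 inputs, and AGO5 replicate 2 at day 7, at 1.75, lay closest to them.

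The 5S rRNA was lower than input in the AGO9 IP at day 35. It stood at 137 and 46.3 RPM in the day 35 inputs, 0.943 and 4.35 in the AGO9 IPs, 47.5 and 42.6 in the AGO5 IPs and 124 and 163 in the GFP-only IPs. Both AGO9 libraries were far below the other 6. The log2 difference was -4.65 ± 0.78 from input, 3.83 ± 0.78 for AGO5 minus AGO9, and -5.48 ± 0.78 from GFP alone, with limma adjusted p of 0.0036, 0.00407 and 0.000233. The first was lost without input replicate 1 (0.0612) and the second without AGO9 replicate 1 (0.0543), at ranges of 0.000709 to 0.0612 and 0.000558 to 0.0543, and the third kept its call under each of its 9 alternatives.

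**Figure D3:**
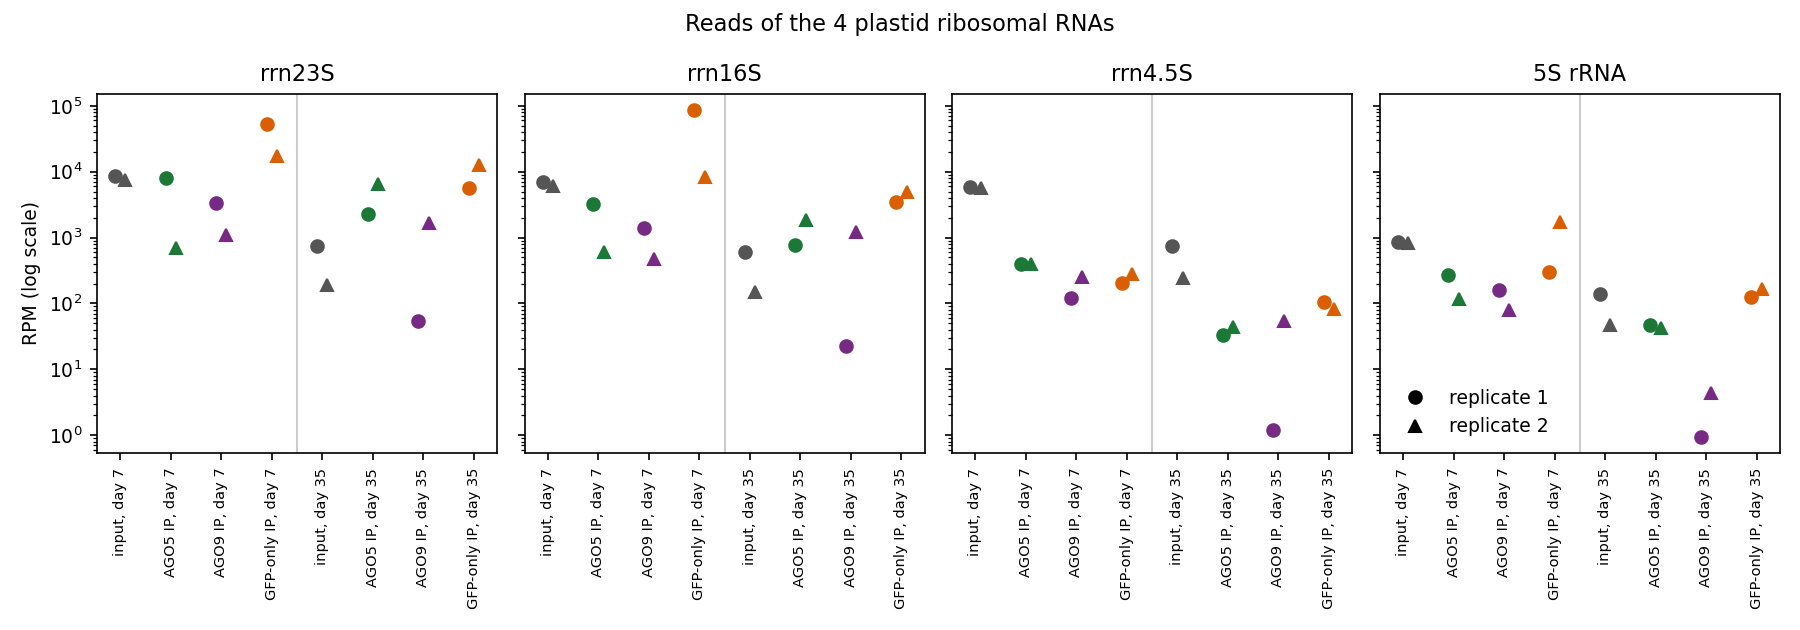
RPM of the 4 plastid rRNAs in each library on a log scale, by group and age, with circles for replicate 1 and triangles for replicate 2. The 4.5S panel has both inputs of each age above all IPs of that age, and the 23S panel has the GFP-only IPs above both inputs of each age.

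The tRNA genes, which carry amino acids to the ribosome, did not share one pattern. At day 7, 4 of the 29 tested were lower with AGO5, 10 with AGO9 and 4 with GFP alone, and 0 were higher, where 10.4%, 9.48% and 26% of all features were lower. Their median log2 difference was -0.84 for AGO5, -1.92 for AGO9 and 0.32 for GFP alone. At day 35, 2 were lower with AGO5 and 4 with AGO9, while the GFP-only IP had 7 higher and 2 lower and a median of 1.217. Of all features at day 35, 24.2%, 6.26% and 44.5% were lower and, with GFP alone, 1.1% higher.

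The aspartate tRNA gene trnD (ATCG00230) was lower in all IPs at day 7. It stood at 132 and 142 RPM in the inputs, 19.0 and 8.73 in the AGO5 IPs, 4.10 and 2.66 in the AGO9 IPs and 6.59 and 12.3 in the GFP-only IPs. No IP library came near the inputs. The log2 differences were -3.30 ± 0.82 for AGO5, -4.99 ± 0.82 for AGO9 and -3.78 ± 0.82 for GFP alone (limma adjusted p of 0.0196, 0.0041 and 0.00876). The AGO5 call was lost without AGO5 replicate 2 (0.203) or either input (0.111 and 0.118), over a range of 0.00676 to 0.203. The AGO9 call was lost without input replicate 1 (0.0516, over a range of 0.000378 to 0.0516). The GFP-only call was lost without either input (0.0554 and 0.0806) or GFP-only replicate 1 (0.0656), over a range of 0.00224 to 0.296. At day 35 the inputs stood at 54.8 and 36.5 RPM and the GFP-only IPs at 48.3 and 60.6, which overlapped them.

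The serine tRNA gene trnS (ATCG00090) was high in the GFP-only IP at day 35 and low in the AGO9 IP at day 7. At day 35 it stood at 603 and 147 RPM in the GFP-only IPs, 83.1 and 44.1 in the AGO5 IPs, 3.001 and 14.7 in the AGO9 IPs and 12.9 and 6.80 in the inputs. The GFP-only libraries were the highest and the AGO5 libraries came next, above both inputs. The GFP-only difference from input was 4.84 ± 1.14 on the log2 scale (limma adjusted p = 0.0052), and it stayed called under each of its 9 alternatives. At day 7 it stood at 343 and 20.8 RPM in the AGO5 IPs, 4.57 and 6.84 in the AGO9 IPs, 59.8 and 53.9 in the inputs and 154 and 40.8 in the GFP-only IPs. The AGO5 libraries were both above the AGO9 libraries, by 3.71 ± 1.14 (adjusted p = 0.0331), and this call was lost without AGO5 replicate 1 (0.308) or either AGO9 library (0.152 and 0.104), over a range of 0.00885 to 0.308.

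Reads of 22 nt were a large part of trnS in the IPs. They made up 61.1% and 57.9% of its reads in the day 35 AGO5 IPs and 45.9% and 74.8% in the GFP-only IPs, against 29.5% and 27.8% in the inputs, where 21 nt reads led with 47.5% and 58.4%. The AGO9 IPs stood at 37.1% and 55.1%, the first from few reads, so all 6 IPs of day 35 lay above both inputs in this share. Of all reads in these libraries, 22 nt made up 29.4% and 27.8% in AGO5 and 22.8% and 17.7% in GFP alone. The inputs had 11.6% and 9.45% and the AGO9 IPs 2.29% and 7.95%. In AGO5 and GFP alone the whole library was thus higher in 22 nt reads than input too, and in AGO9 it was lower.

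The leucine tRNA gene trnL (ATCG01030), of which 77.2% of the 24-base windows have a nuclear copy, also differed between AGO5 and AGO9 at day 7. It stood at 38.4 and 5.78 RPM in the AGO5 IPs and 3.37 and 1.63 in the AGO9 IPs. The difference of 2.27 ± 0.75 (limma adjusted p = 0.0442) was lost without AGO5 replicate 1 or either AGO9 library, with adjusted p between 0.104 and 0.385, over a range of 0.00964 to 0.385. These were the 2 plastid features called higher in AGO5 than in AGO9 at day 7, where 3.44% of all features were called higher and 21.5% lower, and 0 were lower. With no filter on low values 0 were called, and without the day 35 GFP-only libraries 3 were higher and 1 lower. With each library also centred on its median 13 were higher.

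The histidine tRNA gene trnH (ATCG00010) was lower than input in both Argonaute IPs at day 35. It stood at 30.1 and 24.1 RPM in the inputs, 0 and 5.15 in the AGO5 IPs, 0 and 0.622 in the AGO9 IPs and 17.9 and 24.5 in the GFP-only IPs. One library of each Argonaute group had no trnH read, and neither group overlapped the inputs. The log2 difference was -3.49 ± 0.75 for AGO5 and -4.45 ± 0.75 for AGO9 (limma adjusted p of 0.00528 and 0.0036). The AGO5 call was lost with edgeR (0.218) and in 3 of the 4 fits within one read size, over a range of 0.00133 to 0.227. The AGO9 call was lost with edgeR (0.0789) and within 22 and 23 nt reads (0.0569 and 0.0704), over a range of 0.000759 to 0.0789. The difference was -3.15 for AGO5 against GFP alone (0.00846), which was lost without AGO5 replicate 1 (0.0740, over a range of 0.00156 to 0.164).

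The glycine tRNA gene trnG (ATCG00100), which had the most reads of the tRNA genes, stood at 186 and 172 RPM in the day 7 inputs, 831 and 34.4 in the AGO5 IPs, 411 and 55.9 in the AGO9 IPs and 1209 and 1534 in the GFP-only IPs. Its GFP-only difference from input was 2.92 with a limma adjusted p of 0.099. A second leucine tRNA gene, trnL (ATCG00400), reached 390 RPM in AGO5 replicate 2 at day 35 against 35.9 in replicate 1. The lysine tRNA gene trnK (ATCG00030) was higher in the GFP-only IP than in input at day 35, at 12.3 and 109 RPM against 6.83 and 2.29. Its difference of 2.91 ± 1.02 (adjusted p = 0.0351) was lost without either input or GFP-only replicate 2, with adjusted p between 0.0593 and 0.223, over a range of 0.00119 to 0.223.

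Genes for photosynthesis were lower than input in the day 7 Argonaute IPs. Photosystem II, which splits water, had 9 of 14 tested genes lower with AGO5 and 10 of 14 with AGO9, where 10.4% and 9.48% of all features were lower. Photosystem I had 2 of 4 in both, the cytochrome b6f complex 4 of 6 in both, the ATP synthase 4 of 6 in both and the NDH complex, which takes part in cyclic electron flow, 8 and 9 of 11. None was higher in these groups. None of these AGO5 calls was kept without AGO5 replicate 2 or either input, where limma called 0 plastid features.

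The gene for the alpha subunit of the ATP synthase, atpA (ATCG00120), and that for the D2 reaction centre protein of photosystem II, psbD (ATCG00270), had the largest differences among the calls in AGO5 at day 7 besides 4.5S, under the rule for naming genes. In the inputs atpA stood at 107 and 112 RPM, in the AGO5 IPs at 23.99 and 2.56, in the AGO9 IPs at 18.9 and 4.89 and in the GFP-only IPs at 75.2 and 44.8. All IP libraries were below the inputs and the Argonaute libraries were below the GFP-only ones. The AGO5 difference from input was -3.55 ± 0.92 for atpA and -3.40 ± 1.05 for psbD (limma adjusted p of 0.0227 and 0.0434). Both were lost without AGO5 replicate 2 or either input, with adjusted p of up to 0.271 for atpA and 0.381 for psbD, over ranges of 0.00645 to 0.271 and 0.0107 to 0.381. In the AGO9 IP psbJ (ATCG00550), a small photosystem II subunit, stood at 4.66 and 1.48 RPM against 50.8 and 51.3 in the inputs. Its difference was -3.80 ± 1.13 (adjusted p = 0.0274), and it was lost without any one of the 4 libraries, with adjusted p between 0.0609 and 0.182, over a range of 0.00075 to 0.182.

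The transcripts of rbcL (ATCG00490), the large subunit of the carbon-fixing enzyme rubisco, and of psbA (ATCG00020), the D1 reaction centre protein of photosystem II, gave the most reads after the 23S, 16S and 4.5S rRNAs. In the day 7 inputs rbcL stood at 1619 and 1624 RPM and psbA at 841 and 821, or 1126 and 782 RPM per kilobase. The rbcL values were 408 and 42.5 RPM in the AGO5 IPs, 209 and 65.5 in the AGO9 IPs and 1318 and 776 in the GFP-only IPs. For psbA they were 1295 and 62.9, 315 and 57.0, and 2812 and 1156 RPM. Both genes were thus below both inputs in AGO9, while psbA in AGO5 overlapped its inputs and psbA in GFP alone was above them.

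The difference of rbcL from input was -3.61 for AGO5 (limma adjusted p = 0.065) and -3.78 ± 1.25 for AGO9 (adjusted p = 0.0419). The AGO9 call was lost without any one of its 4 libraries, with adjusted p between 0.0659 and 0.247, over a range of 0.0139 to 0.247. The ratio of rbcL to psbA reads was 1.93 and 1.98 in the day 7 inputs and between 0.315 and 1.15 in the 6 day 7 IPs, all below the inputs. At day 35 the inputs themselves stood at 0.886 and 0.996, and 1 IP library, AGO9 replicate 2 at 1.14, lay above them. The difference of psbA between AGO9 and GFP alone at day 7 was -3.74 ± 1.41 (adjusted p = 0.0357), and it was lost without AGO9 replicate 2 or either GFP-only library, with adjusted p between 0.0616 and 0.223, over a range of 0.00619 to 0.223.

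The remaining leading genes of these complexes were lower than both inputs in both Argonaute IPs at day 7 without passing the test, apart from petD in AGO9. The photosystem I core gene psaA (ATCG00350) had differences of -3.37 for AGO5 and -3.03 for AGO9 with limma adjusted p of 0.0927 and 0.104, and the ATP synthase beta gene atpB (ATCG00480) had -2.95 and -3.15 with 0.0908 and 0.0565. The NDH gene ndhB (ATCG00890) had -2.43 and -2.18 with 0.0805 and 0.0912. The cytochrome b6f gene petD (ATCG00730) stood at 64.7 and 65.6 RPM in the inputs, 102 and 8.08 in the AGO9 IPs and 56.1 and 3.63 in the AGO5 IPs.

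Genes for plastid ribosomal proteins had 10 of 20 tested members lower with AGO5 and 12 of 20 with AGO9 at day 7, against 10.4% and 9.48% of all features, and 1 of 20 in either at day 35, against 24.2% and 6.26%. That member was rpl23 (ATCG00840), which encodes a protein of the large subunit next to the peptide exit. At day 35 rpl23 stood at 151 and 246 RPM in the inputs, 14.3 and 9.85 in the AGO5 IPs, 0.429 and 1.244 in the AGO9 IPs and 79.4 and 125 in the GFP-only IPs. The 4 groups did not overlap, with input highest and AGO9 lowest. The log2 difference from input was -3.91 ± 0.88 for AGO5 and -6.76 ± 0.88 for AGO9 (limma adjusted p of 0.00651 and 0.000543), and -0.95 with adjusted p = 0.383 for GFP alone. Neither call was lost when any one library was left out. The AGO5 call was lost when only 21 nt reads were used (0.526, over a range of 0.00179 to 0.526) and the AGO9 call when only 24 nt reads were used (0.0935, over a range of 8.96e-05 to 0.0935).

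At day 7 rpl23 showed less difference. It stood at 616 and 547 RPM in the inputs, 729 and 59.0 in the AGO5 IPs, 146 and 49.7 in the AGO9 IPs and 377 and 403 in the GFP-only IPs. The AGO5 libraries spanned the inputs, and the AGO9 libraries lay below them by 2.75 on the log2 scale (limma adjusted p = 0.0364), a call lost without AGO9 replicate 2 (0.254) or either input (0.163 and 0.122), over a range of 0.00222 to 0.254. Both day 35 inputs lay below both day 7 inputs, with a difference of -1.58 that did not pass the test (adjusted p = 0.258).

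The reads of rpl23 had their own size. In all 8 day 7 libraries 22 nt reads made up between 79.1% and 93.7% of them, and in the day 35 inputs 72.7% and 85.9%. The day 35 IPs had fewer rpl23 reads, and AGO9 had the fewest, so the shares there are coarse. Reads of 22 nt made up between 16.7% and 17.4% of all reads in the day 7 inputs and between 31.2% and 31.8% of the reads of all plastid features other than tRNA and rRNA. The ribosomal protein gene rpl16 (ATCG00790), named after its values were seen, came next at 48.1% and 50.9% of 22 nt reads in the day 7 inputs and 65.0% and 63.4% in the day 35 inputs. The sequence of rpl23 shown above holds no 24-base window with a nuclear copy, and which stretch of it gave the 22 nt reads cannot be read from counts per gene.

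**Figure D4:**
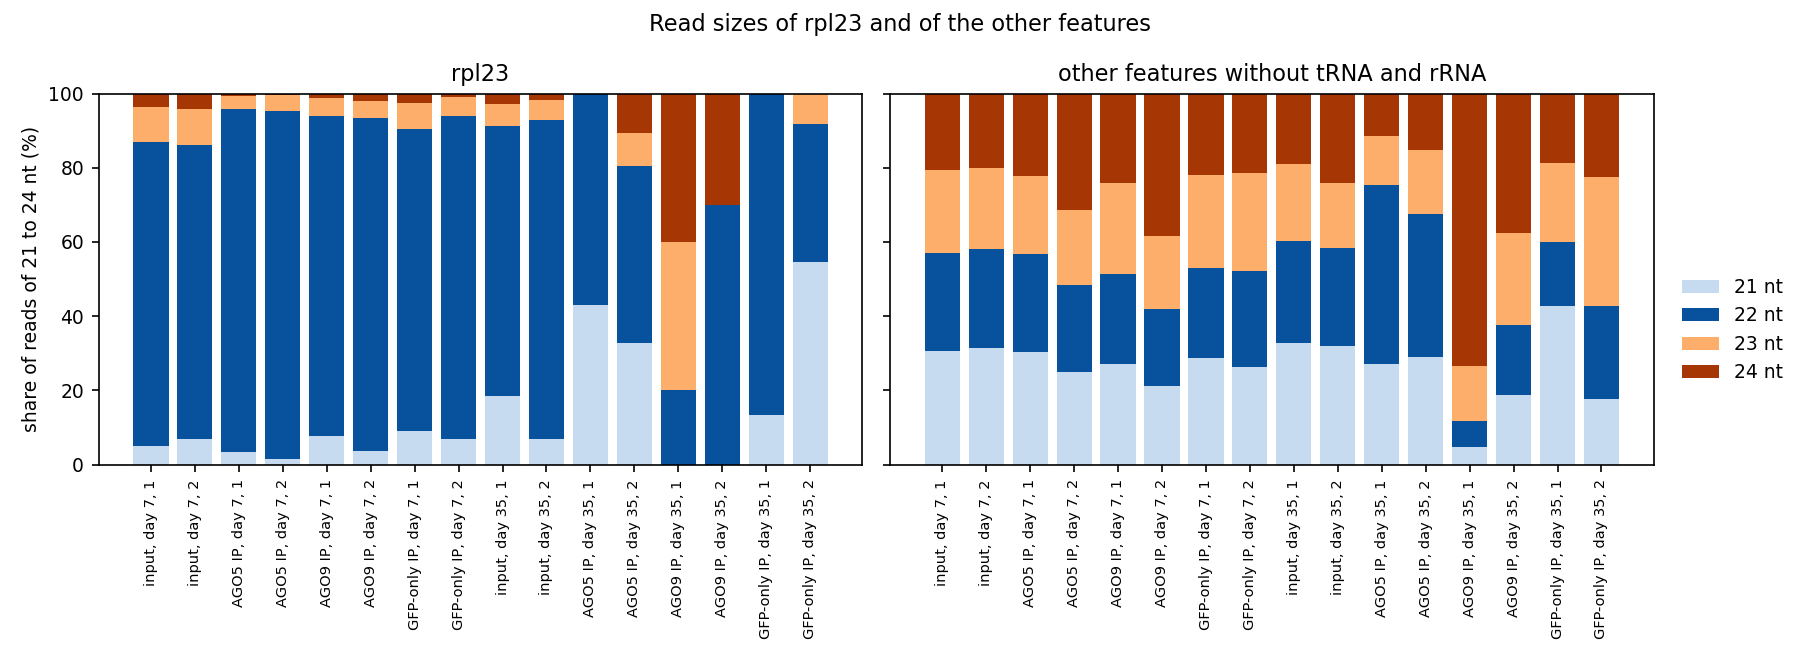
Share of reads of 21, 22, 23 and 24 nt, in percent, for rpl23 (left) and for the summed other plastid features without tRNA and rRNA (right), with 1 bar for each library. The 22 nt class fills most of every day 7 and input bar of rpl23, and the 24 nt class fills most of the right-hand bar of AGO9 replicate 1 at day 35.

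The long reading frames ycf1 and ycf2 and the RNA polymerase genes had larger shares of 24 nt reads in the day 7 AGO9 IPs than in their inputs. The gene ycf1 is listed as 2 rows, ATCG01130 and the shorter ATCG01000, whose whole length is repeated within ATCG01130, so they share reads. It encodes a large protein of the plastid envelope, and ycf2 (ATCG00860) encodes another. Of the reads of ycf1 (ATCG01130), 24 nt made up 39.5% and 78.8% in the day 7 AGO9 IPs, against 22.4% and 20.9% in the inputs, 34.7% and 39.1% in the AGO5 IPs and 25.1% and 22.4% in the GFP-only IPs. Both AGO9 libraries lay above the other 6, closely followed by AGO5 replicate 2.

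The polymerase gene rpoC2 (ATCG00170) had 40.7% and 69.6% of 24 nt reads in the day 7 AGO9 IPs and 22.96% and 25.9% in the inputs, and ycf2 had 33.8% and 67.9% against 20.1% and 20.5%. For the polymerase subunit genes rpoB (ATCG00190), rpoC1 (ATCG00180) and rpoA (ATCG00740) the AGO9 shares ranged from 23.1% to 27.1% in replicate 1 and from 59.1% to 62.1% in replicate 2, and the input shares from 17.6% to 22.7%. In these 3 genes AGO9 replicate 1 was thus close to the inputs and replicate 2 well above them. For psbA the shares were 21.9% and 24.5% against 21.9% and 20.9%, and for rbcL 26.4% and 25.3% against 19.2% and 18.1%. The 2 photosynthesis genes therefore differed less between AGO9 and input in read size than ycf1 and rpoC2 did.

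Copies of plastid sequence in the nuclear chromosomes of TAIR10.1 differed among the features. Of the 116 features, 65 had at least 1 24-base window with an exact nuclear copy, 20 had copies of at least 10% of their windows and 7 of at least 50%. The 7 were trnY at 100%, trnW at 98.0%, trnL (ATCG01030) at 77.2%, trnN at 71.4%, trnD at 66.7%, ycf1 (ATCG01000) at 57.4% and trnE at 52.0%. Among the features without tRNA and rRNA that had at least 50 reads in each AGO9 library of day 7, the 10 with copies of at least 10% of their windows had a median 24 nt share of 33.4% and 69.98%. The other 57 had 22.7% and 33.5%. In the day 7 inputs the same split gave 22.2% and 20.9% for 10 features, and 20.9% and 20.5% for 70.

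Within the copied features the 24 nt share was not uniform. In AGO9 replicate 2 at day 7 the 10 copied features ranged from 24.5% to 84.3% and the other 57 from 2.10% to 67.9%. Spearman's rho between the copied share and the 24 nt share was 0.43 and 0.31 over 67 features in the AGO9 libraries and 0.15 and 0.11 over 80 in the day 7 inputs. In the day 35 inputs it was 0.35 and 0.48 over 54 features, in the day 7 AGO5 IPs 0.15 and 0.06 over 59, and in the day 7 GFP-only IPs -0.09 and 0.28 over 68. The medians of the copied and other features were 24.4% and 17.9%, and 34.2% and 19.3%, in the day 35 inputs, and 31.2% and 26.8%, and 40.3% and 34.7%, in the day 7 AGO5 IPs. A higher 24 nt share of copied features was therefore not limited to the AGO9 IPs. These features share the library and its depth, and the 2 ycf1 rows share sequence, so these figures are descriptions. The threshold of 10% was set with the data in view. Some features also have exact copies in the mitochondrial genome, such as 20.8% of the windows of psbA, 24.6% of rbcL and 66.7% of trnD. Whether a read came from the plastid, a nuclear copy or a mitochondrial copy cannot be told apart in these counts.

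**Figure D5:**
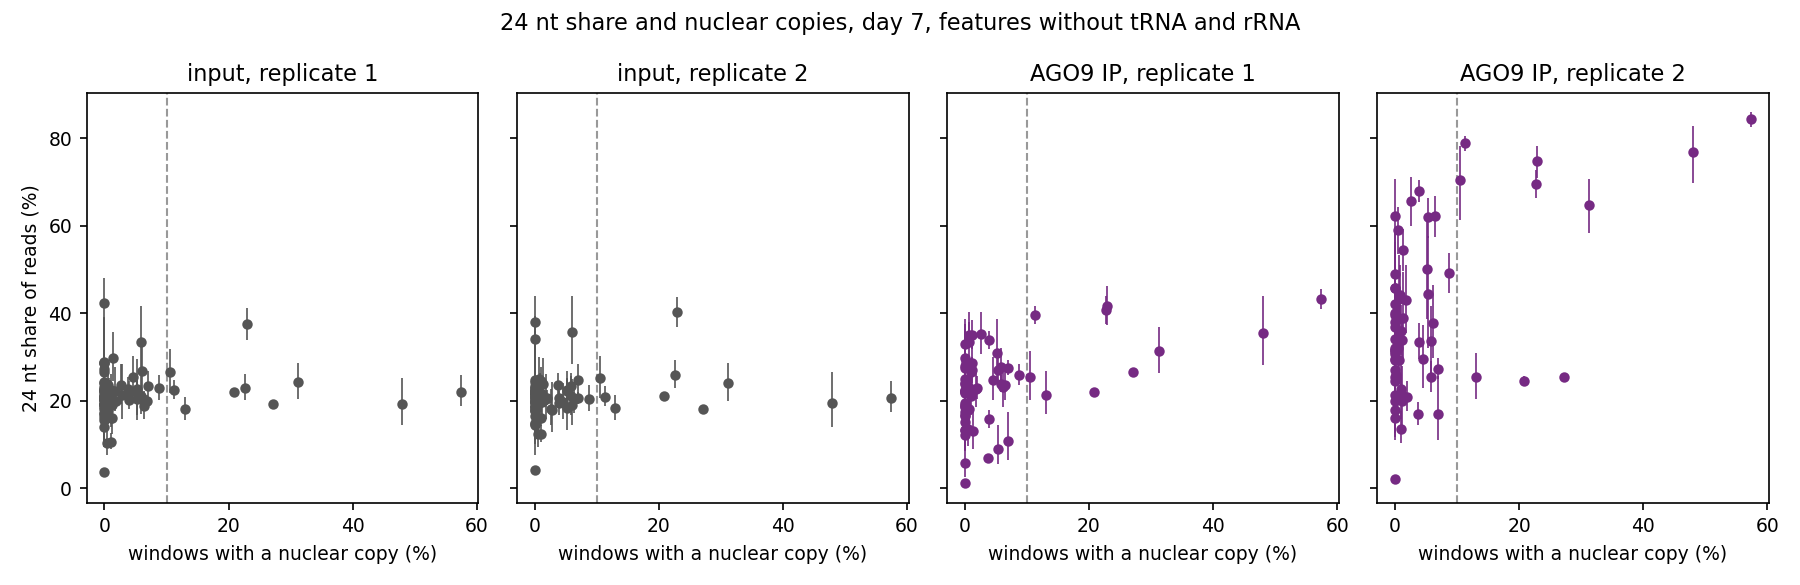
Share of 24 nt reads (y axis, percent) against the share of 24-base windows with an exact nuclear copy (x axis, percent) for plastid features without tRNA and rRNA that had at least 50 reads, in the day 7 inputs and AGO9 IPs. Bars are 95% Wilson intervals, which cover counting error only, and the dashed line stands at 10%. In the inputs most points lie near 20% at any x, and in AGO9 replicate 2 the right side of the line ranges from 24.5% to 84.3%.

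At day 7 ycf1 (ATCG01130) stood at 84.5 and 88.4 RPM in the inputs, 17.9 and 7.66 in the AGO5 IPs, 39.6 and 21.7 in the AGO9 IPs and 38.6 and 73.6 in the GFP-only IPs. All 6 IP libraries lay below both inputs, by 2.77 ± 0.53 on the log2 scale for AGO5 (limma adjusted p = 0.00891) and by 1.53 for AGO9 (0.052). The AGO5 call was lost without AGO5 replicate 2 (0.122) or either input (0.0817 and 0.0819), over a range of 0.00215 to 0.122.

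Like many plastid features, ycf1 had no reads in the day 35 GFP-only IPs, where 63 and 69 of the 116 features had none. The row ATCG01130 stood at 24.1 and 13.4 RPM in the inputs and 20.5 and 9.51 in the AGO5 IPs. In the AGO9 IPs it stood at 5.23 and 6.59 RPM, and in both GFP-only IPs at 0. Against a floor of 3 reads in each GFP-only library, ycf1 was at least 24.1-fold higher in input. It was at least 19.3-fold higher in AGO5 and at least 7.58-fold higher in AGO9. The limma adjusted p were 0.00017, 0.000321 and 0.00146. In these GFP-only libraries some features had many reads of a single size, such as psbA in replicate 2, with all its 72 reads at 24 nt. A value of 0 there need not mean a level under 3 reads, and the folds of this paragraph may be too large. The AGO9 call was lost with quantile normalisation (0.0776). The shorter row ATCG01000 was at least 14.7-fold higher in input (0.000977, lost with quantile normalisation at 0.0581) and at least 5.75-fold higher in AGO9 (0.0081), a call lost without AGO9 replicate 2 (0.0503) and with quantile normalisation (0.256). Compared with GFP alone at the same age, rpoC2 stood at 20.2 and 6.89 RPM in AGO5 and 2.40 and 4.48 in AGO9 against 0 and 0, at least 17.4-fold and at least 4.41-fold higher (0.00232 and 0.0276), and the AGO9 call was lost without either AGO9 library (0.0567 and 0.149). The gene atpA was at least 11.2-fold higher in the day 35 input than in GFP alone (0.0196), which was lost without input replicate 1 (0.162).

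The Argonaute IPs were also compared with GFP alone at each age, and the change between the ages was not tested. At day 7 14 of 110 were lower and 0 higher in the AGO5 IP, against 1.39% lower and 24.5% higher of all features, and 50 were lower and 0 higher in the AGO9 IP, against 4.92% and 60.2%. The plastid medians were -1.66 and -1.85, where all features had 0.73 and 1.76. The AGO5 count was 0 without AGO5 replicate 2, 45 without AGO5 replicate 1 and 6 without either GFP-only library. The AGO9 count was 1 without AGO9 replicate 2, 9 without GFP-only replicate 1 and 21 without replicate 2. Besides the rRNAs and psbA, the named calls were petD, at 298 and 283 RPM in the GFP-only IPs, rpl2 (ATCG00830), a ribosomal protein gene at 67.2 and 44.8, and trnfM (ATCG00320), the initiator tRNA, at 48.9 and 184. In AGO5 they stood at 56.1 and 3.63, 17.4 and 3.04, and 33.6 and 5.78 RPM, below both GFP-only values in each case. Their log2 differences were -4.16, -2.70 and -2.65 (limma adjusted p of 0.0347, 0.0351 and 0.0414), and all 3 were lost without AGO5 replicate 2, with adjusted p between 0.316 and 0.364, and without GFP-only replicate 2, with adjusted p between 0.0730 and 0.254. Without GFP-only replicate 1 petD and rpl2 were lost, at 0.138 and 0.175. The AGO5 and AGO9 comparisons share the GFP-only libraries.

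At day 35 AGO5 exceeded GFP alone in 17 features and fell below it in 9, against 24.5% higher and 5.26% lower of all features. In AGO9 3 were higher and 24 lower, against 38.5% and 6.5%. With quantile normalisation the AGO5 split was 4 higher and 10 lower and the AGO9 split 0 and 26, and edgeR gave 22 higher and 6 lower for AGO5. The 17 higher features held none of the tRNA or rRNA genes, and included 5 of the 11 NDH genes and 5 of the 11 tested features of the mixed group with ycf1. Each of the 17 had no read in at least 1 GFP-only library, and most had none in both. These libraries were the shallowest, so the calls may reflect reads missed there. Of the 24 lower in AGO9, 17 were tRNA genes and 4 the rRNAs. In AGO5 7 of the 9 lower features were tRNA genes. Without AGO5 replicate 1 the AGO5 split was 4 and 4, and without AGO9 replicate 1 the AGO9 split was 2 and 14.

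Among these, rpl23 was lower in AGO9 than in GFP alone by 5.81 ± 0.88 on the log2 scale and trnS (ATCG00090) by 5.24 ± 1.14 (limma adjusted p of 0.000324 and 0.00304), and both kept the call under each of their 9 alternatives. In AGO5 rpl23 was lower by 2.96 (0.024), which was lost without either AGO5 library or GFP-only replicate 2, with adjusted p between 0.0518 and 0.117. The glutamine tRNA gene trnQ (ATCG00060) was at 1.55 and 0.959 RPM in AGO5 and 14.3 and 8.17 in GFP alone, lower by 2.40 ± 0.56 (0.00733), and kept its call under all 9. The gene ndhB was higher in AGO5, at 33.8 and 12.6 RPM against 3.91 and 0, by 3.30 ± 0.90 (0.016), and lost its call without AGO5 replicate 1 (0.120) or GFP-only replicate 2 (0.0641).

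Against input, the GFP-only IP was lower for plastid features at day 7 in 12 of 110 and higher in 0, against 26% lower and 0.182% higher of all features. At day 35 10 were higher and 19 lower, against 1.1% and 44.5%. The medians were -0.71 and -0.98, against -1.03 and -1.27 over all features. Quantile normalisation turned the day 7 split into 1 higher against 2 lower and the day 35 split into 12 against 1, and edgeR called 0 at day 7, where limma had 24 at an unadjusted p under 0.05. At day 7 2 were lower without either input and 5 without GFP-only replicate 1, and at day 35 7 were higher and 4 lower without input replicate 1, and 2 higher and 19 lower without input replicate 2. The 10 higher at day 35 comprised 7 tRNA genes, 23S rRNA, rpl33 and the photosystem II gene psbN, which was named after its value was seen. The GFP-only reads of rpl33 and psbN were nearly all of a single size that differed between replicates. In replicate 1, 95.5% and 100% of them were of 21 nt, and in replicate 2 all were of 24 nt.

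Between AGO5 and AGO9 at day 35, 9 of 110 plastid features were higher in AGO5 and 0 lower, where 7.06% of all features were higher and 18.6% lower. The median was 1.27 against -0.34. The 9 comprised 5S rRNA, the ribosomal protein genes rpl33, rpl23 and rps18, the NDH genes ndhB and ndhD, the cytochrome b6f gene petA, the ATP synthase gene atpI and cemA, an envelope protein gene; all but 5S, rpl33, rpl23 and ndhB were named after their values were seen. The gene rpl33 (ATCG00640) stood at 18.9 and 13.2 RPM in AGO5 and 1.03 and 1.244 in AGO9, a difference of 2.98 ± 0.66 (limma adjusted p = 0.00631) that kept its call under each of its 11 alternatives. For ndhB, at 33.8 and 12.6 against 0.686 and 2.99 RPM, the difference was 3.07 ± 0.90 (0.0252), which was lost without AGO5 replicate 1 (0.163) or AGO9 replicate 1 (0.191). Without AGO9 replicate 1, the library with the smallest plastid share, 1 feature was called, and without AGO5 replicate 1, 3.

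In the inputs the estimate was lower at day 35 than at day 7 for all 110 tested plastid features. Some features with few reads passed the filter of 1 RPM mainly through the day 7 inputs, which favoured a lower day 35 value for them. limma called 64 lower and 0 higher, where 5.44% of all features were lower and 11.2% higher, and the plastid median was -2.76 against 0.48. In bulk samples fewer cells with many plastids and less plastid RNA per cell cannot be told apart, and tissue and age changed together. The calls covered 6 of 6 ATP synthase genes, 14 of 20 ribosomal protein genes, 8 of 11 NDH genes, 8 of 14 photosystem II genes, 11 of 29 tRNA genes and 2 of 4 rRNAs. Without input day 7 replicate 1 or 2, 6 and 7 were called, without day 35 replicate 1 or 2, 40 and 2, and edgeR called 9. The mitochondrial genes had 0 higher and 3 lower of 87, and their median log2 difference was also below 0, at -0.68.

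Among the features called between the ages and named by the rule, the largest differences were in trnI (ATCG00930) and trnA (ATCG00940), the isoleucine and alanine tRNA genes that lie between 16S and 23S in the rRNA operon, and in rbcL. The 16S and 23S rRNAs had estimates of -4.44 and -4.42 that did not pass the test (limma adjusted p of 0.0760 and 0.0569). The gene trnI stood at 221 and 201 RPM at day 7 and 14.3 and 6.35 at day 35, rbcL at 1619 and 1624 against 189 and 37.1, and trnA at 343 and 300 against 28.0 and 16.6. The day 35 inputs were lower in every case, and the 2 day 35 libraries differed by more than the day 7 ones. The log2 differences were -4.32, -4.25 ± 1.25 and -3.83 ± 1.19 (limma adjusted p of 0.0348, 0.0373 and 0.0462). Each was lost without any one input library, with adjusted p between 0.0532 and 0.292, over a range of 0.008 to 0.292 for the 3 genes.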

How the data were processed

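Small RNAs of input and immunoprecipitated RNA were sequenced in 16 libraries, after a Qiagen miRNA library kit per the labels' protocols. Per the submitters' processing notes, cutadapt 1.18, Bowtie2 2.3.5.1, and featureCounts of Subread 2.0.1 were used with the TAIR10 build. The treatment of reads that match several places is not given in the sources used here. Both copies of each inverted-repeat gene hold the same or nearly the same number of whole reads, so reads that match both were counted at each. Whether reads that match a nuclear copy were counted at each place too is not given. The authors deposited RPM values per feature for reads of 21, 22, 23 and 24 nt. These 4 columns together have the same sum in every library, so RPM is relative to read assignments and shares of one library depend on each other. A deposited combined column of AGO5 day 35 replicate 1 is on another scale, was treated as a score and was not used. Each deposited RPM value is a whole multiple of what 1 read is worth, within a tolerance of 0.01 reads.

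The 4 sizes were summed. Inverted-repeat copies were counted once; 10 of the 18 pairs were identical in all libraries. log2(RPM + 1) was tested with limma 3.58.1 (R 4.3.3, trend) in 1 model of all 16 libraries with 8 groups and 8 residual degrees of freedom, over 17020 features, those averaging 1 RPM or more. Benjamini-Hochberg adjustment over all of them and a threshold of 0.05 gave the calls. Because of the added 1, folds of features with few reads come out too small. The quasi-likelihood test of edgeR 4.0.16 on the recovered reads was an alternative. Plastid shares were compared with an exact permutation test (scipy 1.17.1). Both fits were tested on simulated data. The named genes were the 10 with the highest mean RPM, the highest of each role, and per comparison and direction up to 3 with the largest difference among those called, averaging 10 RPM or more in libraries that do not overlap between the groups. The members follow from the chromosome alone, but this set and the gene groups were chosen for study with earlier results of these data known. Nuclear copies are exact matches of 24-base windows in the nuclear chromosomes of TAIR10.1, on either strand. Mitochondrial copies were sought in the same way. RefSeq names matched all but 3 plastid rows. Replicate numbers of different groups are not stated to mark a pairing, and the deviations of same-numbered libraries correlated between -0.22 and 0.51, so no block was used.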

Additional observations from a re-analysis of the deposited data

Results flagged for a closer look

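The difference in plastid share between the AGO5 IP and its input went in opposite directions at the ages. Both day 7 libraries lay below both inputs and both day 35 libraries lay above both inputs, and the day 35 difference exceeded the day 7 difference by 2.32 percentage points. The difference between the ages was not tested. At day 35 the higher share lay in the tRNA and rRNA genes, as the difference without them was -0.0415 points.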

How the results depend on the processing

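No alternative reversed a called difference of a named gene, and the signs of the other called features were not followed. The counts of plastid features called, higher and lower together, moved by over 1.5 times in the following cases, and the cause was not tested except that leaving out libraries leaves fewer samples. The shares of all features called under these settings were not set beside the counts, here or above. A rescaling moves every feature, so the counts show how calls moved and not a trait of the plastid features. With each library centred on its median and the day 35 GFP-only libraries out, the count was 94 for AGO9 against input at day 7 and 3 for GFP alone against input. It was 15 for AGO5 against input at day 35, 84 and 109 for AGO5 and AGO9 against GFP alone at day 7, 13 and 41 for AGO5 against AGO9 at day 7 and day 35, and 97 between the ages of input. For the change of the AGO5 and AGO9 difference between the ages it was 17 and 11. Quantile normalisation gave 3 for GFP alone against input at day 7 and 13 at day 35, and 7 for AGO5 against input at day 35. It gave 68 and 103 for AGO5 and AGO9 against GFP alone at day 7, 14 for AGO5 against GFP alone at day 35, 6 and 16 for AGO5 against AGO9, and 6 and 6 for the change. A pseudocount of 0.5 gave 8 and 31 for AGO5 and AGO9 against GFP alone at day 7 and 1 for AGO5 against AGO9 at day 7. With no filter on low values, 12 were called for GFP alone against input at day 35, 2 and 15 for AGO5 and AGO9 against GFP alone at day 7, and 12 for AGO5 against GFP alone at day 35. The same setting gave 0 and 3 for AGO5 against AGO9, and 2 and 2 for the change. Without the day 35 GFP-only libraries, 21 were called for GFP alone at day 7, 9 and 17 for AGO5 and AGO9 against input at day 35, and 44 and 78 against GFP alone at day 7. The same fit gave 4 and 25 for AGO5 against AGO9 and 11 and 7 for the change. edgeR gave 1, 7 and 0 for AGO5, AGO9 and GFP alone against input at day 7, 3 for AGO9 against input at day 35, 4 for AGO5 against GFP alone at day 7, 17 for AGO5 against AGO9 at day 35 and 9 between the ages.

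Fits within one read size were added after seeing the data. For AGO5 against input at day 7, 21 nt reads gave 18 calls and 24 nt reads 26, and for AGO9 21 nt reads gave 18 and 22 nt reads 20. At day 35, AGO5 had 0 with 21 nt, 1 with 22 nt and 7 with 24 nt reads, and AGO9 had 5 with 21 nt, 5 with 23 nt and 5 with 24 nt reads.

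Leaving out one library at a time gave between 0 and 68 calls for AGO5, 3 and 56 for AGO9 and 2 and 9 for GFP alone against input at day 7. At day 35 it gave between 2 and 6, 2 and 10, and 11 and 36. Against GFP alone it gave between 0 and 45 for AGO5 and 1 and 53 for AGO9 at day 7, and 8 and 34, and 16 and 38, at day 35. AGO5 against AGO9 ranged from 0 to 5 and from 1 to 13, the ages of input from 2 to 40, and the change from 0 to 2 and from 0 to 1. The difference in plastid share ranged from -2.68 to -1.13 points for AGO5, -2.66 to -2.14 for AGO9 and 0.692 to 12.2 for GFP alone at day 7. At day 35 the ranges were 0.140 to 0.679, -0.239 to 0.0739 and 0.840 to 1.67. Without tRNA and rRNA genes the share difference was -0.441 points for AGO5 and -0.532 for AGO9 at day 7, and -0.0415 for AGO5 and -0.0431 for GFP alone at day 35. With both inverted-repeat copies counted it was -3.41, -4.28, 0.826 and 2.45.

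With the replicate number as a block, 24 were called for AGO5 against GFP alone at day 7, and 1 and 2 for the change of the AGO5 and AGO9 difference. The other counts stayed within 1.5 times, and of the named genes the block ended the calls of trnfM in AGO5 against GFP alone at day 7 (limma adjusted p = 0.0527) and of trnA between the ages (0.0544). At the depth of the day 35 GFP-only libraries, 3 reads came to 0.838 and 0.721 RPM, so features below that level were not measurable there.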
